A study of Mus musculus with 3 samples.

Results

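The genes described here drive the cell cycle and mitosis: cyclins, DNA replication factors, kinetochore, spindle and cytokinesis genes and 3 regulators or markers of proliferation. They were chosen by name, as all probes that the array annotates with a fixed list of 42 symbols, which stand for 41 genes because Cdc2a is the older symbol of Cdk1. All 41 genes were on the array, with 67 probes. Of these, 51 probes of 39 genes were bright enough to be tested, among 20603 tested genes in all.

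RNA from adult hearts was hybridized to 3 Agilent whole mouse genome arrays, replicates 1 to 3. By the labels, the Cy5 channel held heart RNA of Lrrc10-/- mice and the Cy3 channel a heart reference pool of wildtype (Lrrc10+/+) mice, both of strain C57/BL6 at 2 months of age, with RNA of 2 hearts in a pool and no other treatment. No array had the dyes swapped, so dye and genotype cannot be told apart, and the labels do not state whether 1 wildtype pool served all arrays; had it done so, the spread between wildtype pools would be missing from every test. Lrrc10 encodes a leucine-rich repeat protein of heart muscle, and the question behind the arrays was which transcripts differ in hearts that lack it.

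The deleted gene went against the labels. On replicates 1, 2 and 3, processed signals of Lrrc10 were 476, 443 and 352 in Cy3, compared with 14283, 20828 and 17703 in Cy5. It was thus brighter in the channel labelled Lrrc10-/- on every array, with a mean log2 ratio of 5.37 ± 0.41 (SD, n = 3; adjusted p = 0.000251 with limma). The ratio was 4.31 with normexp and loess and 4.70 with normexp and median centring, and the adjusted p was 0.975 with no signal filter and 0.0810 without replicate 2. Where on the transcript the probe lies relative to the deleted part was not examined here. Every direction below is therefore given by channel, as Cy5 (labelled Lrrc10-/-) or Cy3 (labelled WT), and would turn if the channels were exchanged. Between 66.7% and 69.8% of the gene spots were well above background in Cy3 and between 70.3% and 71.0% in Cy5. All 8 defining genes of heart muscle examined, among them Myh6, Actc1 and Tnnt2, were well above background on every array in both channels.

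Cells pass from G1 through S phase and G2 into mitosis as cyclins activate their kinases in turn. D and E cyclins act before and at the start of S phase, and the Mcm helicase and Pcna serve in the copying of the DNA. Cyclins A and B with Cdk1 bring on mitosis, in which kinetochores attach chromosomes to the spindle and the cytokinesis proteins divide the cell. Most cardiomyocytes of the mouse leave the cycle soon after birth, and most dividing cells of the adult heart are of other types. In a bulk sample, fewer dividing cells and less RNA per cell cannot be told apart.

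Many of these genes carry shared promoter elements, and RefSeq promoter windows (GRCm38.p6, 250 bases before to 50 after the start) were found for 32 of the 41 genes. CHR, the element bound by the MuvB complexes that time mitotic transcription, was searched as TTTGAA. The CCAAT box, to which NF-Y binds, was searched by those letters. The site of the E2F factors was searched in 2 forms, TTTCGCGC and also TTTGGCGC. Each word was sought on both strands. Words that overlapped were all kept. A CHR word lay in the windows of 17 of the 32 genes (53.1%), against 20.2% of 27025 genes with a window. CCAAT lay in those of 27 genes (84.4% against 41.1%) and an E2F word in those of 5 genes (15.6% against 0.929%). CHR and CCAAT occurred together in the windows of 16 genes (50% against 8.97%). By role, a CHR word was found for 4 of 4 cytokinesis genes, 4 of 5 spindle genes and 5 of 8 centromere and checkpoint genes but for 1 of 8 replication genes, whereas an E2F word was found for 4 of 8 replication genes and for none of those other 3 groups. A match is a description of the letters and not a measured binding site.

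Windows are shown for 4 genes that the results below turn on: Cenpf and Prc1, which had the highest and the lowest mean ratio, and Kif23 and Mcm3, which stand for the mitotic and the replication genes that changed sides between arrays. They are printed 5′ to 3′ on the strand of the gene, with every matching word in capitals.
Cenpf, chr1:189688037-189688336, minus strand: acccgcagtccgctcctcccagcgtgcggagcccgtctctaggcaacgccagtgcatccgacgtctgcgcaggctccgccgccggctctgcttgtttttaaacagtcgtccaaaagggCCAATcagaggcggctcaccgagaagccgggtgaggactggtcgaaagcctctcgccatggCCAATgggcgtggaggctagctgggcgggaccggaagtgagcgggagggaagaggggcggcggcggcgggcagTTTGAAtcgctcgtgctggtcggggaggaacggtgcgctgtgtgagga
Prc1, chr7:80294201-80294500, plus strand: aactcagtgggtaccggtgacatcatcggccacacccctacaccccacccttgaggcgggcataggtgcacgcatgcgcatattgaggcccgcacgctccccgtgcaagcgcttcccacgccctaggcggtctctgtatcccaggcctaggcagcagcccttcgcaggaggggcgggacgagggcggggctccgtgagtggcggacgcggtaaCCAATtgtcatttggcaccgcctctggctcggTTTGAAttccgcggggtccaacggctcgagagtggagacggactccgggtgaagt
Kif23, chr9:61946750-61947049, minus strand: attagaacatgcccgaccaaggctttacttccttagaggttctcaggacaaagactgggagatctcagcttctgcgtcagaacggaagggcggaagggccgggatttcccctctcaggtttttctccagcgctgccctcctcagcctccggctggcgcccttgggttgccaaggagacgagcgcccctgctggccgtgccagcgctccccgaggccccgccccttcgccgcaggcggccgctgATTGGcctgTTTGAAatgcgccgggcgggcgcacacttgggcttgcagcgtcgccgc
Mcm3, chr1:20820263-20820562, minus strand: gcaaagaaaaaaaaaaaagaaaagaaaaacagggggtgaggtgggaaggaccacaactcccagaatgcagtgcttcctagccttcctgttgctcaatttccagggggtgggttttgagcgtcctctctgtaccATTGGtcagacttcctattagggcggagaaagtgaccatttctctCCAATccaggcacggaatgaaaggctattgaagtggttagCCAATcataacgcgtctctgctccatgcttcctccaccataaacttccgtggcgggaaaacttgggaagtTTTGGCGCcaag
In the Cenpf window the CHR word begins 2 bases after the start and the CCAAT words begin 132 and 71 bases before it. The Prc1 window holds a CHR word 5 bases and a CCAAT word 37 bases before the start.

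No cell cycle probe was called by limma at an adjusted p under 0.05: 0 of 51 probes, against 2 of 29576 probes in all (0.00676%). At an unadjusted p under 0.05, 2 member probes were brighter in Cy5, both of Cenpf, and 1 in Cy3, of Prc1, where 1.54% and 1.52% of all tested probes lay in these directions. The lowest adjusted p of a member was 0.291, by limma. The methods' t-test, run on the same ratios, gave 1 member probe under the unadjusted threshold (1.96%, against 4.21% of all tested probes) and 0 after adjustment. The confidence intervals (95%, limma) of the mean log2 ratios had a median half-width of 0.60. An exact sign-flip test over 3 arrays cannot go below a two-sided p of 0.25.

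Of 39 genes, each read by its brightest tested probe, 3 were brighter in Cy5 on all 3 arrays (7.69%, against 9.47% of all tested genes) and 6 in Cy3 (15.4%, against 12.2%). At a ratio of at least 1.2 on every array, 1 gene remained in Cy5, Cenpf, where 1.60% of all genes passed, and 2 in Cy3, Prc1 and Foxm1, where 2.22% passed. These shares lie near those of the array as a whole. The median of the mean log2 ratios was 0.00 over the 39 genes and -0.01 over all tested genes. It was -0.19 without replicate 1 and 0.15 without replicate 3, where all tested genes stayed at -0.01 and 0.00. The plot of the ratios by gene and array shows Cenpf apart from the other genes and a wide spread between arrays for most of them.

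**Figure D1:**
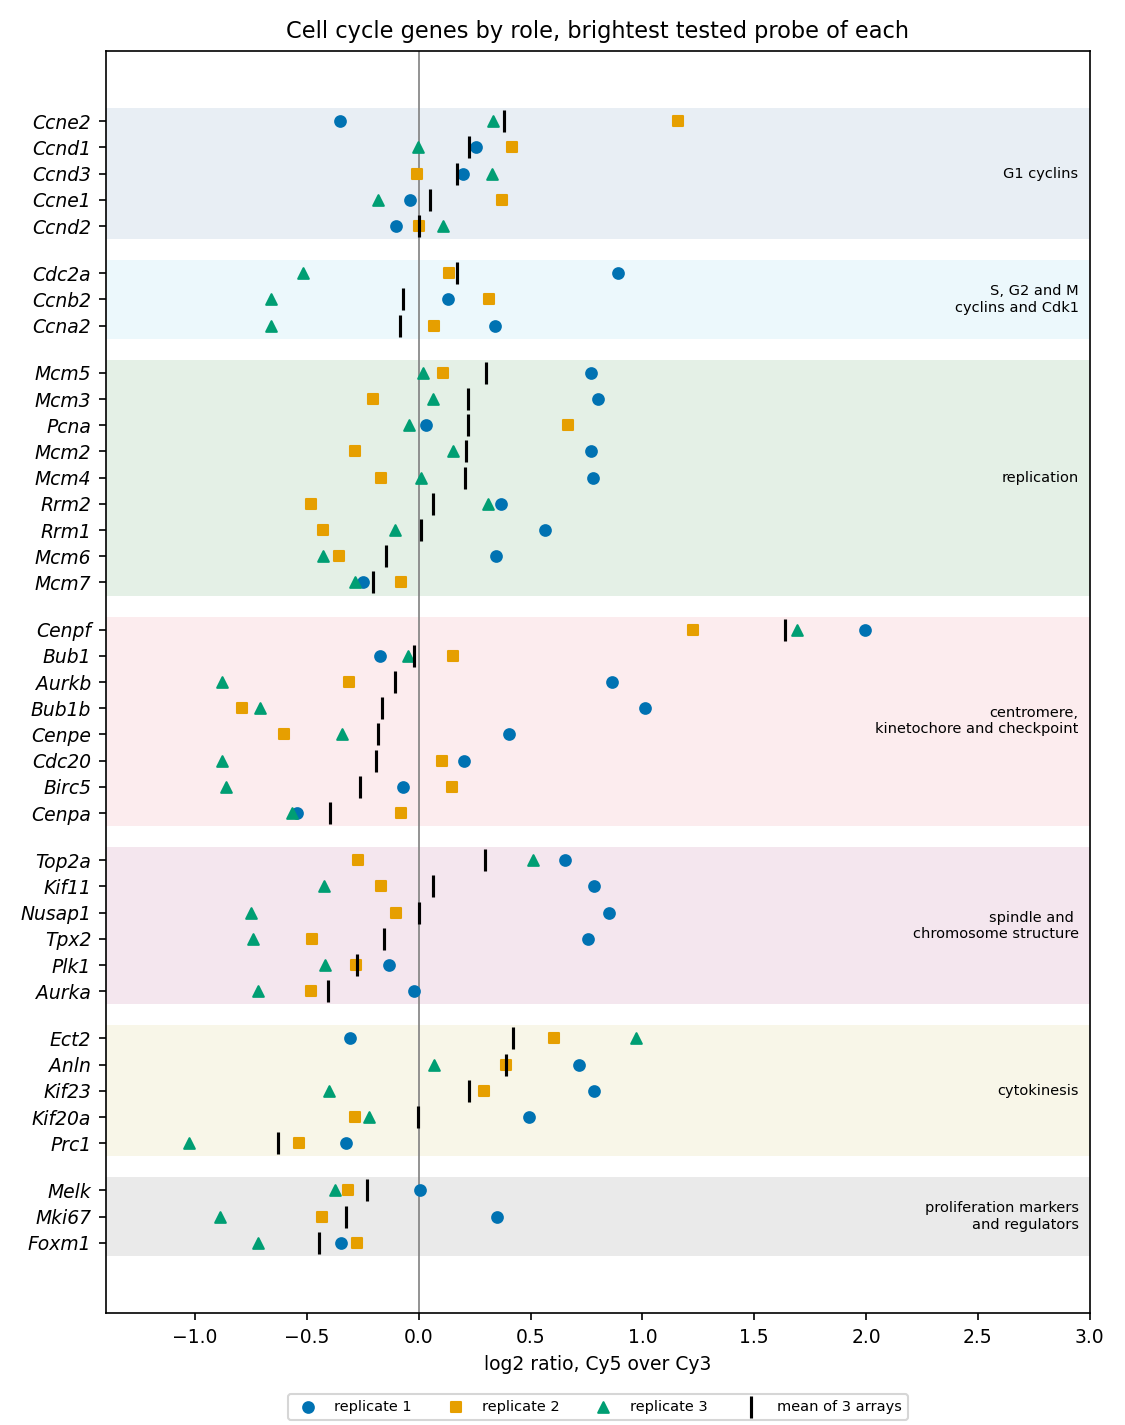
Log2 ratio of Cy5 over Cy3 (horizontal axis) of the 39 tested genes, each by its brightest probe, in shaded blocks by role; symbols stand for the 3 arrays and the bar for their mean. Cenpf sits between 1.23 and 2.00 on all arrays, while most other genes lie on both sides of 0.

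Cenpf, a large protein of the kinetochore and nuclear matrix that accumulates in G2 and mitosis, was the member that stood furthest from 0. Its brighter probe had processed signals of 1008, 2445 and 626 in Cy3 and of 4019, 5725 and 2021 in Cy5 on replicates 1, 2 and 3. Cy5 was the brighter channel on every array, with log2 ratios of 2.00, 1.23 and 1.69. The mean was 1.64 ± 0.39 (SD, n = 3), a 3.11-fold difference with an interval of 1.15 to 2.13, and it ranked 34 of 29576 tested probes counted from the brightest in Cy5. The adjusted p was 0.291 with limma. By limma it passed the threshold under some settings, with an adjusted p of 0.0331 after normexp correction with median centring, 0.0289 with no dye normalization and 4.19e-05 without replicate 3. It did not under others, with 0.689 for normexp and loess, 0.672 with no intensity trend, 0.975 with no signal filter, 1.00 without replicate 1 and 0.869 without replicate 2. Its log2 ratio stayed between 1.46, without replicate 1, and 2.08, with no dye normalization, and was 1.67 with normexp and loess.

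A second Cenpf probe was dim, with signals of 8.06, 33.2 and 10.8 in Cy3 and of 65.7, 52.9 and 29.0 in Cy5. It was well above background in Cy5 on all 3 arrays but in Cy3 on replicate 2 alone, where its log2 ratio was 0.67. The deposited ratios on replicates 1 and 3, 3.03 and 1.42, were set against a Cy3 signal that was not well above background. The mean over the 3 arrays was 1.71 (adjusted p = 1.00 with limma), and it was 0.23 with normexp and loess and 0.17 with normexp and median centring. It was 1.05 without replicate 1, 2.22 without replicate 2 and 1.85 without replicate 3 (adjusted p = 0.0212 with limma for the last).

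**Figure D2:**
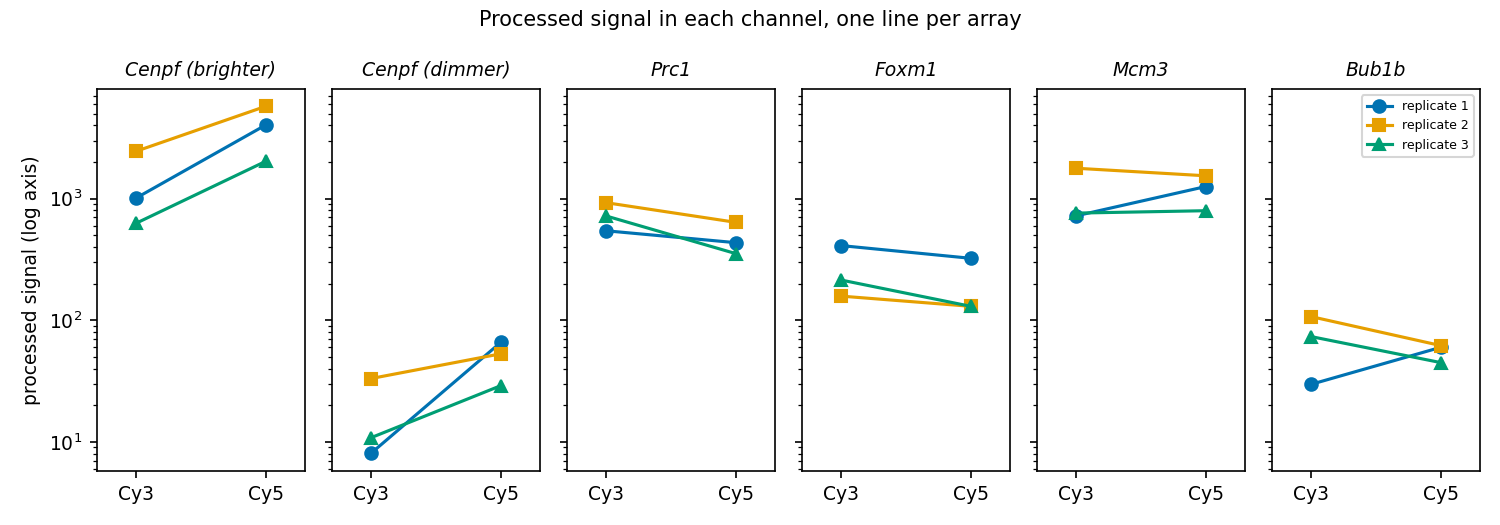
Processed signal (vertical log axis) of 6 probes in Cy3 and Cy5, with one line per array. Both Cenpf probes rise from Cy3 to Cy5 on all 3 arrays (on replicates 1 and 3 the Cy3 signal of the dimmer one was not above background), Prc1 and Foxm1 fall on all 3, and Mcm3 and Bub1b rise on replicate 1 and fall on replicate 2.

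The other genes of the centromere, kinetochore and spindle checkpoint did not share the Cenpf ratio. Cenpa, the histone H3 variant that marks centromeres, had the lowest mean of this group, with log2 ratios of -0.55, -0.08 and -0.57 and a mean of -0.40 ± 0.28 (SD, n = 3; adjusted p = 1.00 with limma). Its signals were 3703, 4240 and 4160 in Cy3 and 2535, 4011 and 2808 in Cy5, so Cy3 was the brighter channel on every array. The motor Cenpe had ratios of 0.40, -0.60 and -0.34 by its brightest probe.

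Bub1b, the checkpoint pseudokinase BubR1, went from 29.7 in Cy3 and 59.9 in Cy5 on replicate 1 to 107 and 61.9 on replicate 2 and 73.4 and 44.8 on replicate 3. Its log2 ratios were 1.01, -0.79 and -0.71, but in Cy3 it was not well above background on replicate 1, so the first of these has no exact size. The same holds on replicate 1 for Aurkb. Aurkb, the kinase of the chromosomal passenger complex, had ratios of 0.87, -0.31 and -0.88, and its partner Birc5, or survivin, of -0.07, 0.15 and -0.86. Cdc20, which activates the anaphase-promoting complex, had ratios of 0.20, 0.10 and -0.88. On replicate 3 these 4 genes were all brighter in Cy3, with ratios between -0.88 and -0.71. Bub1, the checkpoint kinase, depended on the probe: its brighter probe lay between -0.17 and 0.15, its dimmer probe, not well above background in Cy3 on replicate 1, between -1.11 and 0.86. Ttk, the kinase Mps1, was not well above background in either channel on any array.

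Among the spindle and chromosome genes, Aurka, the centrosomal kinase, had the lowest mean. Its signals were 224, 416 and 361 in Cy3 and 221, 298 and 219 in Cy5. The log2 ratios of -0.02, -0.48 and -0.72 were all below 0 but near 0 on replicate 1, with a mean of -0.41 ± 0.36 (SD, n = 3; adjusted p = 1.00 with limma). Plk1, the polo-like kinase, was likewise below 0 on each array, at -0.13, -0.28 and -0.42. Top2a, the topoisomerase that untangles sister chromatids, had the highest mean of the group, 0.30 ± 0.50, from ratios of 0.65, -0.27 and 0.51, and was dim, with signals between 19.4 and 62.6, and not well above background in Cy3 on replicate 3. Tpx2, which activates Aurka on the spindle, and Nusap1, which bundles spindle microtubules, had ratios of 0.76 and 0.85 on replicate 1 and of -0.74 and -0.75 on replicate 3. The motor Kif11 had ratios of 0.78, -0.17 and -0.42 and was not well above background in Cy3 on replicate 1.

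In cytokinesis, Prc1, which crosslinks the microtubules of the central spindle, had the lowest mean of all 39 genes. Its signals were 544, 925 and 720 in Cy3 and 434, 638 and 353 in Cy5. Cy3 was brighter on every array, with log2 ratios of -0.32, -0.54 and -1.03 and a mean of -0.63 ± 0.36 (SD, n = 3), a 1.55-fold difference with an interval of -1.15 to -0.11 (adjusted p = 1.00 with limma). With normexp and median centring the mean was -0.32. Kif23, the motor of the centralspindlin complex, gave 0.78, 0.29 and -0.40, and a second Kif23 probe gave 1.18, 0.13 and -0.42. The motor Kif20a had ratios of 0.49, -0.28 and -0.22.

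Ect2, the exchange factor that activates RhoA at the division plane, was read differently by its probes. The brighter gave log2 ratios of -0.31, 0.61 and 0.97, the highest mean of this group at 0.42 ± 0.66 (SD, n = 3; adjusted p = 1.00 with limma), and the other gave 0.36, -0.06 and -0.57. Each array thus had opposite signs for the same gene. Anln, the scaffold anillin, had signals of 21.5, 39.6 and 23.2 in Cy3, where it was not well above background on any array, and of 35.3, 51.8 and 24.3 in Cy5, where it was on all 3. Its log2 ratios of 0.72, 0.39 and 0.07 thus have no exact size. Their mean was 0.39, with an interval of -0.37 to 1.16 (adjusted p = 1.00 with limma). After loess and Aquantile normalization Anln was 1.08-fold brighter in Cy5, a value that is no lower bound and is open to dye bias.

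Of 3 proliferation markers and regulators, Foxm1, the transcription factor of G2 and M phase genes, was brighter in Cy3 on all arrays. Its signals were 411, 158 and 214 in Cy3 and 323, 130.1 and 130.1 in Cy5. The log2 ratios of -0.35, -0.28 and -0.72 gave a mean of -0.45 ± 0.24 (SD, n = 3), a 1.36-fold difference with an interval of -0.99 to 0.10 (adjusted p = 1.00 with limma). The mean was -0.25 with normexp and loess and -0.13 with normexp and median centring. Mki67, the marker Ki-67, had ratios of 0.35, -0.43 and -0.89, and its dimmer probe of 0.67, -0.73 and -0.33. The kinase Melk had the highest mean of this group, -0.23 ± 0.20, from ratios of 0.00, -0.32 and -0.38.

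The mitotic cyclins and their kinase were above 0 on replicates 1 and 2 and below 0 on replicate 3. Ccna2 had signals of 204, 344 and 425 in Cy3 and of 258, 361 and 269 in Cy5, so that its log2 ratio passed from 0.34 and 0.07 on replicates 1 and 2 to -0.66 on replicate 3. Its mean was the lowest of this group, -0.08 ± 0.52 (SD, n = 3; adjusted p = 1.00 with limma). Ccnb2 had ratios of 0.13, 0.32 and -0.66. Cdk1, listed as Cdc2a, had 0.89, 0.13 and -0.52, with the highest mean of 0.17 ± 0.71, and was not well above background in Cy3 on replicate 1. Ccnb1 could not be tested: its 3 probes had mean signals between 10.9 and 17.2, below the minimum of 20, and none was well above background in Cy5 on any array.

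Among the replication genes, the helicase subunits Mcm2, Mcm3, Mcm4 and Mcm5 stood together on replicate 1, with log2 ratios of 0.77, 0.80, 0.78 and 0.77. On replicate 2 they were at -0.29, -0.21, -0.17 and 0.11 and on replicate 3 at 0.15, 0.07, 0.01 and 0.02. Mcm3 had signals of 721, 1775 and 759 in Cy3 and of 1255, 1539 and 795 in Cy5. A second Mcm3 probe gave 0.91, -0.31 and 0.33. Mcm5 had the highest mean of the group, 0.30 ± 0.41 (SD, n = 3; adjusted p = 1.00 with limma), and was above 0 on all arrays. Mcm6 had 0.34, -0.36 and -0.43.

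Mcm7, a further subunit of the helicase, was brighter in Cy3 on each array. Its signals were 1725, 2142 and 2205 in Cy3 and 1451, 2027 and 1808 in Cy5, with ratios of -0.25, -0.08 and -0.29 and the lowest mean of the group, -0.21 ± 0.11. The subunits of ribonucleotide reductase, which makes deoxynucleotides, had ratios of 0.56, -0.43 and -0.11 for Rrm1 and 0.37, -0.48 and 0.31 for Rrm2. Pcna, the sliding clamp, was high on replicate 2 alone, at 0.03, 0.67 and -0.04, each the mean of 10 spots.

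Of the 5 G1 cyclins, none was brighter in the same channel on all arrays, and on no array were they all below 0. Ccne2, which activates Cdk2 at the start of S phase, had the highest mean of the group, 0.38 ± 0.76 (SD, n = 3; adjusted p = 1.00 with limma), from ratios of -0.35, 1.16 and 0.33. Its other probe gave -0.15, 0.91 and 0.24, so both were high on replicate 2. Ccnd2 had the lowest mean, 0.00 ± 0.11, and signals between 10655 and 18975. Ccnd1 gave 0.26, 0.42 and -0.01, Ccnd3 0.20, -0.01 and 0.33 and Ccne1 -0.04, 0.37 and -0.18. A dimmer Ccne1 probe, well above background on all arrays, gave 0.51, -0.07 and 0.32, the opposite sign each time.

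By array, the genes took opposite sides. On replicate 1, 27 of 39 genes were brighter in Cy5 (69.2%, against 50.3% of all tested genes), on replicate 2 there were 16 (41.0% against 52.7%) and on replicate 3 there were 12 (30.8% against 43.9%). Their median log2 ratios were 0.34, -0.10 and -0.34 on replicates 1, 2 and 3, and those of all tested genes were 0.00, 0.04 and -0.06. Over the 7905 genes whose signal lay within the interquartile range of the members' signals, the medians were 0.00, 0.04 and -0.08. The plot of the role medians shows each role on its own. Pooled, the 21 genes of the mitotic cyclins, kinetochore, spindle and cytokinesis other than Cenpf had medians of 0.40, -0.10 and -0.57. Those of the 6 Mcm genes were 0.77, -0.19 and 0.01. Over the 15 of these mitotic genes that were well above background on each array in both channels, the medians were 0.13, -0.08 and -0.66. Over all 33 such members they were 0.20, -0.08 and -0.29, a reading added after the data were seen.

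**Figure D3:**
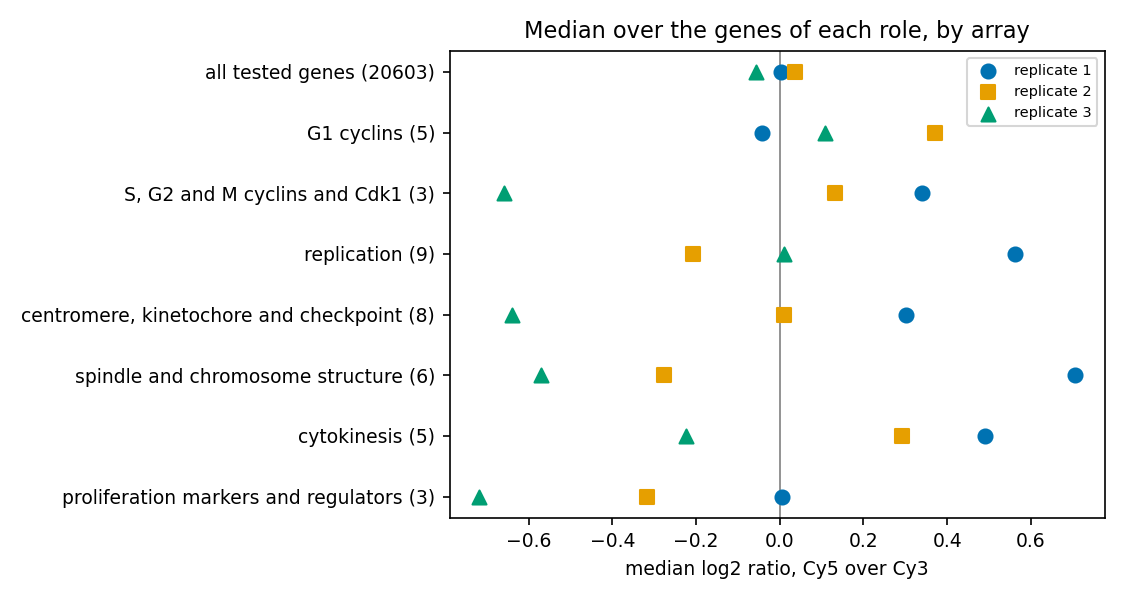
Median log2 ratio of Cy5 over Cy3 (horizontal axis) over the genes of each role, with the number of genes in brackets and a symbol for each array. The mitotic groups lie highest on replicate 1 and lowest on replicate 3, and all tested genes lie within 0.06 of 0.

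The scanner software gives each ratio a p-value from its error model for that array, which covers no spread between hearts. By it, 13 of 39 genes were brighter in Cy5 on replicate 1 at an array p under 0.05 (33.3%, against 12.4% of all genes) and 1 in Cy3, Cenpa (2.56% against 13.0%). On replicate 3 the balance was turned, with 16 genes brighter in Cy3 (41.0% against 15.7%) and 2 in Cy5, Cenpf and Ect2 (5.13% against 11.3%). The dimmer Ect2 probe, at -0.57 on that array, passed the threshold in Cy3. On replicate 2 there were 4 genes in Cy5 (10.3% against 20.4%) and 8 in Cy3 (20.5% against 17.2%). Cenpf was the gene past this threshold in Cy5 on all 3 arrays. Of the 33 members well above background throughout, 10 were brighter in Cy5 on replicate 1 (30.3%, against 12.3% of such genes) and 13 in Cy3 on replicate 3 (39.4% against 15.1%).

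**Figure D4:**
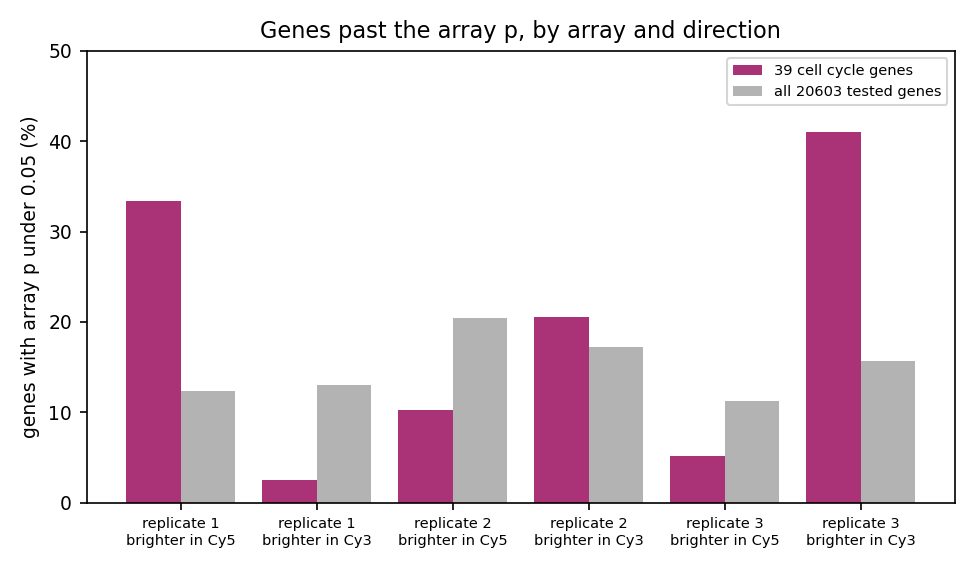
Percent of the 39 cell cycle genes and of all 20603 tested genes (bars) whose ratio had an array p under 0.05, by array and brighter channel. The cell cycle genes reach 33.3% in Cy5 on replicate 1 and 41.0% in Cy3 on replicate 3.

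Set gene by gene, 34 of 39 ratios were higher on replicate 1 than on replicate 3 (87.2%, against 55.0% of all tested genes), with a median difference of 0.70 on the log2 scale against 0.06. Among the members well above background throughout it was 28 of 33 (84.8% against 54.6%). Above 0 on replicate 1 and below 0 on replicate 3 were 18 genes (46.2% against 27.0%). All 9 replication genes were higher on replicate 1, as were 19 of the 21 mitotic genes other than Cenpf. Across the 38 genes other than Cenpf, Pearson's r was -0.31 between replicates 1 and 2, -0.04 between replicates 1 and 3 and 0.41 between replicates 2 and 3, against 0.13, -0.04 and -0.16 over all tested genes. These correlations are across genes on arrays of 1 slide, and genes are not independent replicates. With 1 array per pool, a difference between arrays cannot be tested.

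**Figure D5:**
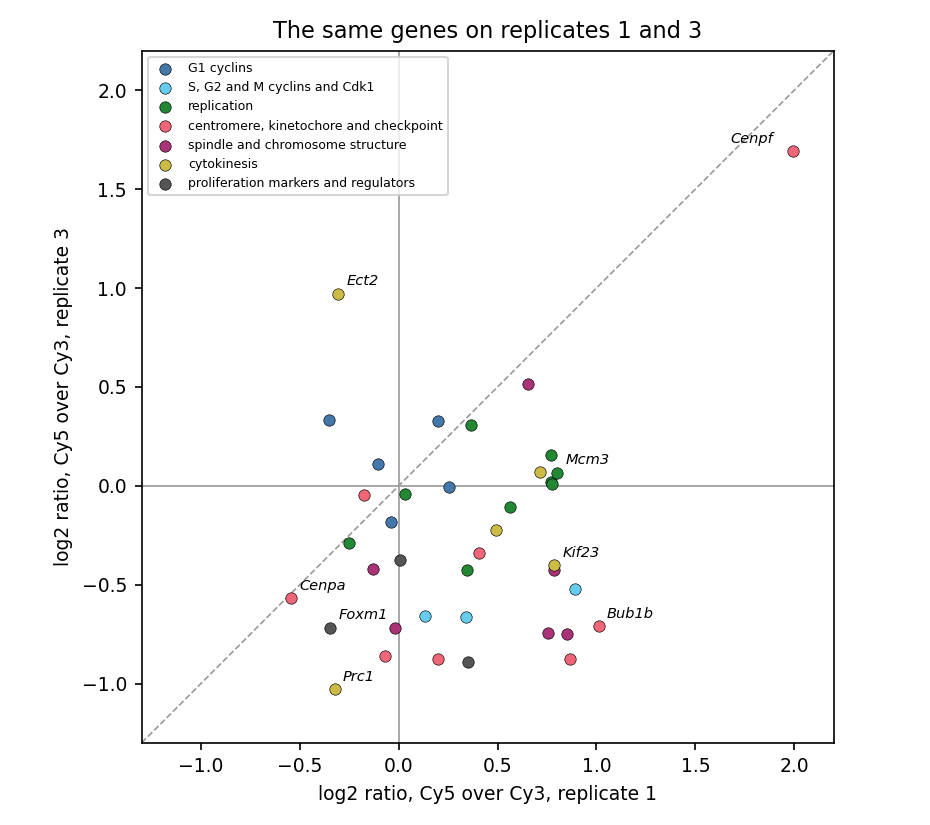
Log2 ratio of Cy5 over Cy3 of each of the 39 genes on replicate 1 (horizontal axis) against replicate 3 (vertical axis), coloured by role, with a dashed line of equal ratios. The points lie below the line for 34 genes, and Cenpf is high on both arrays.

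The order of replicates 1 and 3 held under each scaling tried, but the sign on replicate 3 did not. The median over the 39 genes was 0.13 on replicate 1 and -0.07 on replicate 3 with normexp and loess, 0.38 and -0.11 with no dye normalization, and 0.28 and 0.02 with normexp and centring on the median. All tested genes moved too, to 0.00 and -0.01, to 0.17 and 0.03 and to 0.13 and 0.21, so that the members lay above them on replicate 1 and below them on replicate 3 each time. Higher on replicate 1 were 31 genes with normexp and loess (79.5%, against 52.8% of all tested genes), 33 with no dye normalization (84.6% against 61.1%) and 29 with normexp and centring on the median (74.4% against 43.4%). On replicate 2 the members' medians of 0.00, 0.13 and 0.12 in that order stood beside 0.01, 0.14 and 0.12 over all tested genes.

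Read by channel after loess and Aquantile normalization, which puts the arrays on one scale, the members varied more between arrays in Cy3 than in Cy5. The median SD between arrays over the 39 genes was 0.22 in Cy3 and 0.10 in Cy5 on the log2 scale, against 0.18 and 0.11 over all tested genes. For the 33 members well above background throughout, it was 0.24 and 0.13, against 0.20 and 0.12 for such genes as a whole. The median deviation of the members from their own mean in Cy3 was -0.13, 0.01 and 0.09 for replicates 1, 2 and 3. In Cy5 it was 0.04, 0.01 and -0.03. The larger deviations thus lay in the channel labelled as the WT reference pool, where all tested genes also had the larger SD. The 6 Mcm genes had a median SD of 0.29 in Cy3 and 0.22 in Cy5, with Cy5 deviations of 0.14, 0.01 and -0.11.

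Markers of other cells were read on the same arrays. Of the T cell and thymocyte list, 7 of 8 genes were tested and all 7 were well above background in both channels. Their summed signals lay between 1216 and 3242 in Cy3 and between 1836 and 2107 in Cy5. Dntt weighed most in these sums, with signals of 798, 519 and 2379 in Cy3 and of 1371, 1070 and 1261 in Cy5. The list median was -0.14, 0.19 and -0.39 on replicates 1, 2 and 3. Above 0 were 3, 4 and 1 of the 7 on these arrays. The early thymocyte genes Ptcra and Dntt, named after their values were seen, had ratios of 0.66, 0.22 and -0.70 and of 0.78, 1.04 and -0.92. On replicate 1 Cd4 lay at 0.04, Cd3e at -0.14, Lck at -0.21, Cd8a at -0.31 and Cd3d at -0.71, and Cd8a and Cd3d were below 0 on all 3 arrays. The erythroid list, of which 3 of 5 genes on the array were tested, had medians of 0.63, 0.96 and -0.03, with summed signals between 68148 and 109733 in Cy3 and between 107886 and 183013 in Cy5. Its brightest probe, of Hba-a1, was saturated. Without it the medians were 0.54, 0.81 and -0.17 and the sums between 2538 and 3071 in Cy3 and between 2211 and 6219 in Cy5. The leukocyte and macrophage list had medians of -0.09, 0.12 and 0.21, and of -0.11, 0.11 and 0.05 without the saturated Lyz2 probe. Medians were 0.19, -0.40 and -0.25 for the endothelial list, 0.34, -0.36 and -0.05 for the fibroblast list, -0.15, 0.18 and -0.09 for the B cell list, 0.19, -0.16 and 0.54 for the smooth muscle list and 0.07, -0.48 and -0.21 for the heart muscle list. On the heart muscle list 6 of 8 probes were saturated, so their ratios have no exact size, and the 2 unsaturated heart muscle probes, of Ryr2 and Ttn, had medians of 0.43, -0.72 and 0.10. The part of these cells in the cell cycle ratios was not tested.

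Other genes of the cell cycle, from a fixed list of 59 names of inhibitors, E2F factors, kinases, checkpoint and further replication and mitosis genes, were on the array for 57 names and tested for 52. By limma none of their 80 tested probes was called (0, and 0 by the methods' t-test), and at an unadjusted p under 0.05 there were 3 in Cy5 (3.75%, against 1.54% of all probes) and 1 in Cy3 (1.25% against 1.52%). The list median was 0.02, 0.11 and -0.09 on replicates 1, 2 and 3. Brighter in Cy5 on all arrays were 8 genes (15.4%, against 9.47% of all tested genes) and brighter in Cy3 were 7 (13.5% against 12.2%).

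At least 1.2-fold on every array were 3 of these genes in Cy5 (5.77%, against 1.60%) and 1 in Cy3 (1.92% against 2.22%). Ccng1, the p53 target cyclin G1, had signals of 58880, 67371 and 63787 in Cy3 and of 87445, 138256 and 91134 in Cy5, with a mean log2 ratio of 0.71 ± 0.29 (SD, n = 3; adjusted p = 1.00 with limma). Cdk6, a kinase partner of the D cyclins, gave 0.44, 0.73 and 0.33. Wee1, the kinase that holds Cdk1 inactive, gave 1.40, 0.59 and 0.32. Cdkn1a, the Cdk inhibitor p21, was the gene brighter in Cy3, with signals of 245, 405 and 668 in Cy3 and of 170, 211 and 340 in Cy5. Its mean was -0.82 ± 0.25 (SD, n = 3; adjusted p = 1.00 with limma), a 1.76-fold difference in the same direction on all arrays.

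Probes of the same member did not always read it alike. Of 11 genes with several tested probes, 7 had ratios of one sign on each of the 3 arrays, Bub1 and Ccnd2 on 2 of them, and Ect2 and Ccne1 on none. The Cenpe probes shared their signs by array but not that of their means. The dimmer of them, well above background on 2 arrays in each channel, had a ratio of 1.65 on replicate 1 against a Cy3 signal of 8.91. For 33 of 39 genes the brightest tested probe was well above background on each array in both channels, and no member probe was saturated. The exceptions lay in Cy3: Cdc2a, Aurkb, Bub1b and Kif11 on replicate 1, Top2a on replicate 3 and Anln on all arrays. The median signal of the members was 427, against 608 over all tested genes, and the median SD of their ratios between arrays was 0.50, against 0.37.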

How the data were processed

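Heart RNA from 2 mice per pool was hybridized in both colors of 3 arrays by the submitters, and the authors deposited the Agilent Feature Extraction 9.1.3.1 output of each array. Its mean and background signal intensity columns are unnormalized, and its processed intensity columns, as deposited, had local background subtracted and the dyes normalized. The log10 ratio deposited with them divides the processed Cy5 by the processed Cy3 signal, and the deposited p-value belongs to 1 ratio on 1 array. A second table of log10 ratios by the authors equals these values on the 3 arrays.

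Log10 ratios were converted to log2, outlier spots (11, 21 and 4 of 43379) were dropped, and replicate spots were averaged per probe, with the highest array p kept. Probes with a geometric mean signal of at least 20 were tested with limma 3.58.1 in R 4.3.3 (intercept, eBayes with an intensity trend, Benjamini-Hochberg over 29576 probes), which was first tested on simulated data. The brightest tested probe stood for a gene. Normexp used an offset of 50, and values without dye normalization a floor of 1. The methods call the 3 arrays independent replicates. Names of the members were taken from the array. Other probes took the RefSeq name of their accession where there was one. Over all 41174 probes, members included, 24844 had one.

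The members and lists were chosen with earlier results of these data known. Values by array are given for members that differ in one direction by 1.2-fold or more on every array or with an unadjusted limma p under 0.05, for the highest and lowest mean of each role, for Cenpf and Lrrc10, and for listed other genes that meet the same fold. The remaining members were described after their values had been seen. Sequences are those of RefSeq. Embryonic hearts were not analysed here, and neither were the submitters' comparisons.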

Additional observations from a re-analysis of the deposited data

How the results depend on the processing

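The number of arrays and dim signals limit these values: 16 member probes lay under the signal minimum, and 1 slide with 1 dye orientation gives no measure of a dye effect. No member probe was called as reported, and 1 (Cenpf) was called with normexp and median centring, 1 (Cenpf) with no dye normalization, and 0 to 2 on leaving out a replicate, the 2 being Cenpf without replicate 3. Leaving out replicates moved the calls over all probes from 2 to between 0 and 545, with 545 without replicate 3; they were 1 with normexp and loess, 8 with no dye normalization, 0 with no signal filter, 1 at a signal of at least 50, 1 for probes well above background everywhere and 0 by the methods' t-test, by which 1244 passed the unadjusted threshold (4.21%). The median of all genes was 0.18 with normexp and median centring and 0.11 with median centring and no dye normalization. Of 3 genes brighter in Cy5 on all arrays, normexp with loess made 6 (15.4%, against 16.1% of all tested genes), with median centring 15 (38.5% against 42.6%), no dye normalization 10 (25.6% against 23.9%) and the mean over probes 5 (12.8% against 9.55%). The 6 genes brighter in Cy3 became 3 (7.69% against 16.5%), 1 (2.56% against 11.0%) and 3 (7.69% against 10.4%) under the same scalings. Without a replicate the counts, then over 2 arrays, ran from 6 to 10 in Cy5, where all tested genes ran from 20.8% to 24.5%, and from 6 to 17 in Cy3, with 17 without replicate 1 (43.6% against 24.2%) and 6 without replicate 3 (15.4% against 21.5%). At 1.2-fold, the gene in Cy5 became 7 with normexp and median centring (17.9% against 15.6%) and 3 with no dye normalization (7.69% against 7.04%), and 3 on leaving out any one of the replicates (7.69%, against 5.97% to 9.55%). Those in Cy3 numbered 2 as reported, 1 with normexp and loess (2.56%, against 1.55% of all tested genes) and 1 with no dye normalization (2.56% against 2.35%). There were 0 with normexp and median centring (where 8 of 20603 genes passed, 0.039%). Without a replicate there were between 2 and 11, 11 being without replicate 1 (28.2% against 6.23%). With an array p under 0.05 on every array as well, 0 remained in Cy3 and 1, Cenpf, in Cy5. The share of all tested genes was not taken under that setting. Of the other cell cycle genes, between 0 and 1 was called without a replicate: Ccnf without replicate 3, from ratios of 0.20 and 3.40. The second of these was set against a Cy3 signal of 8.79, and Ccnf was well above background in Cy3 on 2 of 3 arrays. Lrrc10 kept a log2 ratio of 5.37 with no signal filter, at an adjusted p of 0.975 by limma, and lay between 5.23 and 5.60 without a replicate, with 0.0810 without replicate 2. The brighter Cenpf probe stayed between 1.46 and 2.08 in the settings run. Prc1, Foxm1 and the dimmer Cenpf probe kept their sign in each but not their size: with normexp and loess, and with normexp and median centring, Prc1 went from -0.63 to -0.54 and -0.32, Foxm1 from -0.45 to -0.25 and -0.13, and the dimmer Cenpf probe from 1.71 to 0.23 and 0.17. The causes were not tested. Each ratio already pairs the channels of an array, and the arrays form 1 group.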
